A study of Homo sapiens with 4 samples.

Results

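The genes described here are 10 genes of macroautophagy: the ATG8 genes MAP1LC3A, MAP1LC3B, GABARAP, GABARAPL1 and GABARAPL2, the cargo receptor genes SQSTM1, OPTN and TAX1BP1, and the upstream genes ULK1 and WIPI1. They were matched by symbol, each to 1 of the 58302 rows of the deposited table, and were chosen with earlier results of these data known. RNA sequencing libraries had been made from total RNA of differentiated (Diff, 2 libraries) and undifferentiated (UnDiff, 2 libraries) cells of BLaER1, a leukaemia line of human B cells. All of the cells carry C/EBPα fused to the oestradiol-binding part of the oestrogen receptor, a construct by which the line can be turned towards macrophages. Differentiated cells had received 100 nM oestradiol with M-CSF and with IL-3, for which 10 ng/ml is written, for 5 to 6 days. Undifferentiated cells are described with the culture medium only. It is a single line, and whether the 2 libraries of a stage stem from separate cultures is not stated, so the p-values cover the spread between these libraries alone, which may be technical.

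Macroautophagy encloses cytoplasm in a double membrane, the autophagosome, and delivers it to the lysosome. The kinase ULK1 starts the process, WIPI proteins bind the phosphoinositide made at the forming membrane, and ATG8 proteins are then coupled to its lipids. Cargo receptors bind ubiquitin-marked cargo on one side and lipid-coupled ATG8 on the other. In macrophages the same machinery takes up bacteria and damaged organelles, and lipid-coupled LC3 is also placed on phagosomes.

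Values are TPM, an abundance corrected for gene length and scaled to the same sum in every library, so levels of different genes can be set side by side while the sequencing depth is unknown. A gene was tested where 2 or more libraries reached 1 TPM. Of the 10180 such genes, 41.4% were called at an adjusted p below 0.05 (limma on log2(TPM + 1), Benjamini-Hochberg over all tested genes), 18.6% higher and 22.8% lower in differentiated cells. Protein-coding genes took 12.2% and 13.5% of the differentiated libraries' TPM, against 23.0% and 15.6% in undifferentiated libraries, and RN7SK, an abundant structural RNA, took 20.9% and 23.5% against 35.5% and 41.7%. Undifferentiated library 1 lay above undifferentiated library 2 by a median of 0.50 on the log2 scale over all tested genes. The stages matched their labels: the 7 macrophage markers, CD68 the most abundant, summed to 598 and 661 TPM in differentiated against 8.12 and 6.22 TPM in undifferentiated libraries. The 7 B lineage markers, with DNTT the most abundant, summed to 8.89 and 10.0 TPM against 341 and 210 TPM. Markers of other cells were near 0 in all 4 libraries. Sums were 0.47 to 1.02 TPM for 5 T and NK cell genes (mostly NKG7). They were at most 0.47 TPM for 4 erythroid genes (mostly HBB, listed at 0 in both undifferentiated libraries). For 4 stromal genes they were at most 0.50 TPM, with COL1A1 the most abundant by mean. In bulk RNA, fewer cells expressing a gene and less of its RNA per cell cannot be told apart. The marker genes and the protein-coding share moved with the stage, and their part in the differences below was not tested.

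Of the 10 genes, 8 were tested and 4 were called higher, against 18.6% of all tested genes (22.8% were called lower). GABARAP, GABARAPL1, SQSTM1 and WIPI1 rose in differentiated cells, MAP1LC3B, GABARAPL2, TAX1BP1 and ULK1 were not called, and 0 were lower, also at an unadjusted p below 0.05 (limma). OPTN and MAP1LC3A did not reach the filter. GABARAPL1 and WIPI1 passed the filter through the differentiated libraries alone. The other 6 tested genes were at or above 1 TPM in every library, and 2 of them were called higher. The share called among all genes at that level was not counted. The median log2 difference was 1.17 over the 8 tested genes and 0.62 over the 6, against -0.14 over all tested genes and -0.24 over the 6601 at or above 1 TPM in every library.

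**Figure D1:**
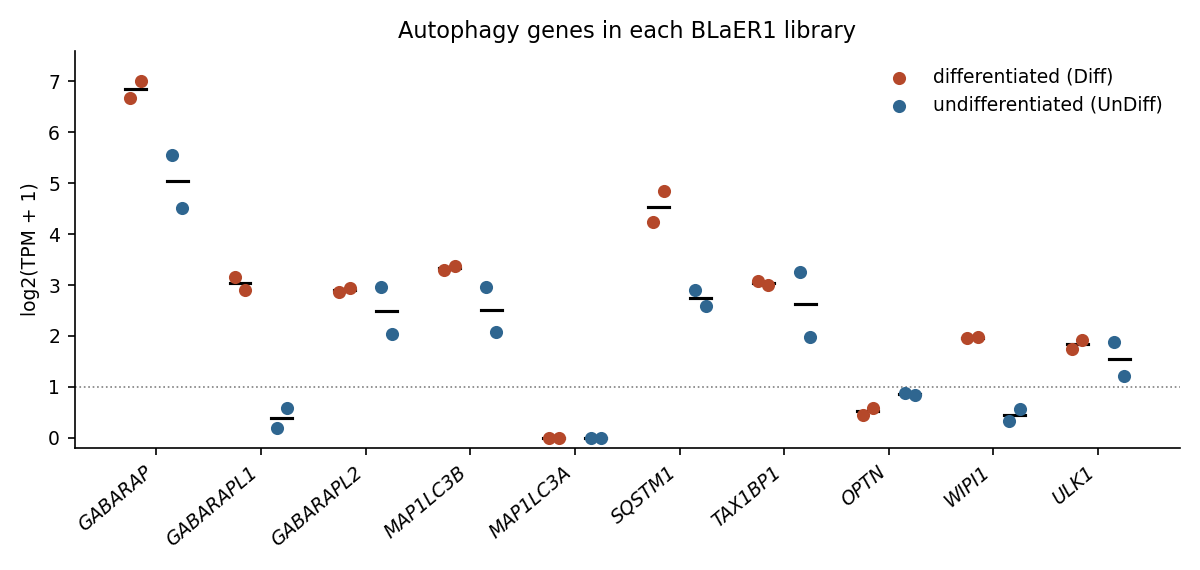
Each gene's log2(TPM + 1) in the differentiated libraries (red, left) and undifferentiated libraries (blue, right); points are single libraries, bars the means of 2, and the dotted line marks 1 TPM. GABARAP lies above the other 9 genes in every library, and the libraries of GABARAPL1 and WIPI1 stand clear of the dotted line in differentiated cells and below it in undifferentiated cells.

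ATG8 proteins are small ubiquitin-like proteins that form an LC3 branch and a GABARAP branch. LC3 proteins are mostly tied to growth of the membrane, GABARAP proteins to its closure and to fusion with lysosomes. GABARAP had 101 and 128 TPM in differentiated libraries, against 45.9 and 21.9 TPM in undifferentiated ones. Both differentiated libraries lay above both undifferentiated ones, and GABARAP was the most abundant of the 10 genes in each library. It ranked 257th and 217th among the 10180 tested genes in differentiated and 635th and 870th in undifferentiated libraries. The differentiated mean was 114 ± 18.7 TPM and the undifferentiated mean 33.9 ± 17.0 TPM (SD, n = 2). On the log2 scale they differed by 1.81 ± 0.41 (SE, limma adjusted p = 0.00307). Without differentiated library 1 or 2 the GABARAP difference was 1.97 and 1.64, with a larger SE of 0.65 each, and the call was lost.

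GABARAPL1, the GABARAP branch gene whose product is also known as GEC1, had the largest difference among the 8 tested genes of the set. It had 7.98 and 6.46 TPM in differentiated libraries, against 0.15 and 0.50 TPM in undifferentiated ones. The stages did not overlap, and both undifferentiated values were under the filter of 1 TPM. The means of 7.22 ± 1.07 and 0.325 ± 0.247 TPM (SD, n = 2) differed 22.2-fold, but the undifferentiated level is too low to fix that ratio closely. On the log2(TPM + 1) scale the difference was 2.64 ± 0.36 (SE, limma adjusted p = 7.86e-05), and it was called in all 17 alternatives, with adjusted p up to 0.0277. With a pseudocount of 0.1 it was 4.23, and with protein-coding genes rescaled alone it was 4.44.

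GABARAPL2, the remaining GABARAP branch gene, known as GATE-16, had 6.31 and 6.66 TPM in differentiated libraries, against 6.74 and 3.12 TPM in undifferentiated ones. Undifferentiated library 1 was as high as the differentiated libraries, so the stages overlapped. The log2 difference was 0.41 ± 0.42 (SE, limma adjusted p = 0.468), and it was -0.05 without undifferentiated library 2 and 0.86 without undifferentiated library 1 (adjusted p = 0.871 and 0.0352). MAP1LC3B, the LC3 gene used most widely as an autophagosome marker at the protein level, had 8.84 and 9.41 TPM in differentiated libraries, against 6.76 and 3.22 TPM in undifferentiated ones. The lower differentiated value lay above the higher undifferentiated one. The log2 difference of 0.82 ± 0.41 (SE) was not called (limma adjusted p = 0.129). Scaling by the median of ratios (0.95, adjusted p = 0.00898) or by quantiles (0.97, adjusted p = 0.00947) gave a call, which was made in 7 of 17 alternatives. Without undifferentiated library 1 the difference was 1.26 (limma adjusted p = 0.0117), and without undifferentiated library 2 it was 0.38 (adjusted p = 0.208). MAP1LC3A was listed at 0 TPM in all 4 libraries. MAP1LC3C, another LC3 gene, was listed at 0 as well, and MAP1LC3B2, a near-identical copy of MAP1LC3B with which reads can be confused, lay between 0.15 and 0.62 TPM.

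GABARAP made up most of the ATG8 total in every library. The 5 genes summed to 124 and 150 TPM in differentiated libraries and to 59.6 and 28.8 TPM in undifferentiated libraries. The GABARAP branch made up 92.9% and 93.7% of that sum in differentiated and 88.7% and 88.8% in undifferentiated libraries. These shares lie within a library and do not depend on how it was scaled. The difference was 4.58 percentage points, with no overlap between stages. An exact permutation test (two-sided) gave p = 0.333, the smallest value that 2 against 2 libraries allow.

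Within the GABARAP branch the 3 genes did not keep their proportions. GABARAP alone took 81.4% and 85.0% of the ATG8 sum in differentiated and 77.1% and 76.2% in undifferentiated libraries. GABARAPL1 took 6.42% and 4.30% against 0.252% and 1.74%. GABARAPL2 took 5.08% and 4.43% against 11.3% and 10.8%, so its share was lower in differentiated cells while its TPM overlapped between stages. As a ratio within each library, GABARAPL1 stood to GABARAPL2 at 1.26 and 0.970 in differentiated and at 0.0223 and 0.160 in undifferentiated libraries. GABARAP stood to MAP1LC3B at 11.4 and 13.6 against 6.79 and 6.81. The 2 undifferentiated libraries, which differed about as much in GABARAP TPM (2.09-fold) as in MAP1LC3B TPM (2.10-fold), thus gave nearly the same ratio. None of these within-library ratios overlapped between stages, and for each the exact permutation p was again 0.333. These pairs were chosen after the values were seen.

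**Figure D2:**
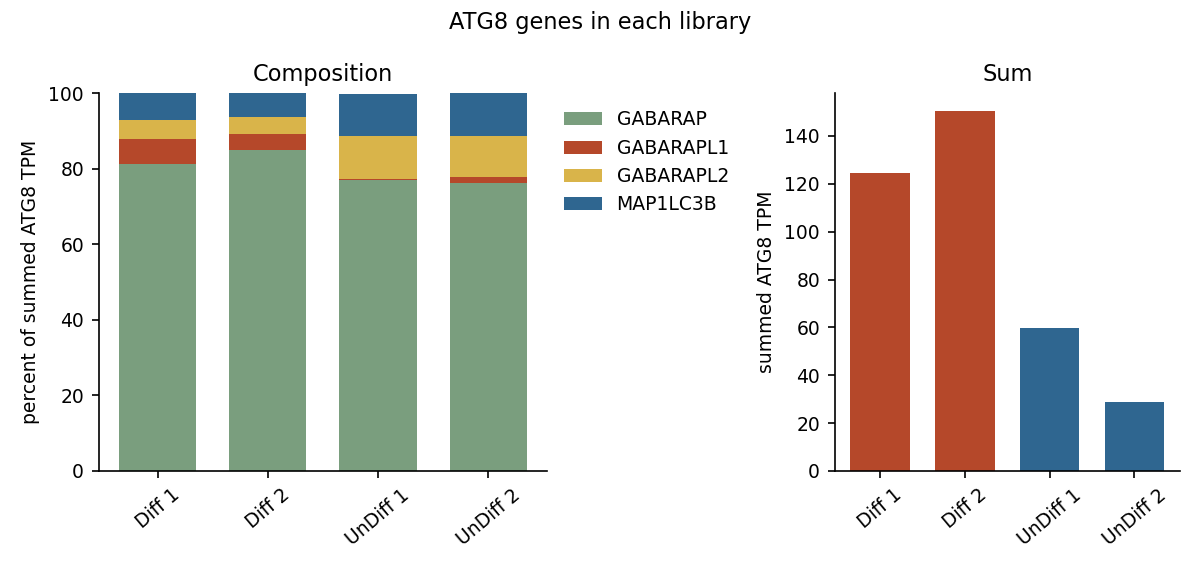
Left, percent of the summed TPM of the ATG8 genes taken by each gene in each library (MAP1LC3A is listed at 0 and not drawn); right, the sum in TPM, in red for differentiated and blue for undifferentiated libraries. The GABARAPL1 segment is 6.42% and 4.30% in differentiated and 0.252% and 1.74% in undifferentiated libraries, and the GABARAPL2 and MAP1LC3B segments are wider in undifferentiated libraries.

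The promoters of the 4 tested ATG8 genes are shown because the family was divided as deposited, with GABARAP and GABARAPL1 called higher and GABARAPL2 and MAP1LC3B not called. Of these 4, GABARAPL1 alone stayed on its side of the threshold in all 17 alternatives. Each line gives the 250 bases before the RefSeq transcription start (GRCh38.p14), 5′ to 3′ on the gene's strand. The build used by the authors is unknown here, and these sequences are reference context and not part of the measurement. Capitals mark matches on either strand to TTNNGNAA (a C/EBP consensus pattern), TGACGTCA (the cAMP response element) and TGACNNNGC (the core of the antioxidant response element).
GABARAPL1 (chr12:10212627-10212876, plus strand): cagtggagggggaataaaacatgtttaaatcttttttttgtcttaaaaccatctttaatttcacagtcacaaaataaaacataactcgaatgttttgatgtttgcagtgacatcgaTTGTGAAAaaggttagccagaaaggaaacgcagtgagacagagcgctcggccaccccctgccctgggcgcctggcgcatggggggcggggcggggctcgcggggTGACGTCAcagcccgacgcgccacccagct
GABARAP (chr17:7242450-7242699, minus strand): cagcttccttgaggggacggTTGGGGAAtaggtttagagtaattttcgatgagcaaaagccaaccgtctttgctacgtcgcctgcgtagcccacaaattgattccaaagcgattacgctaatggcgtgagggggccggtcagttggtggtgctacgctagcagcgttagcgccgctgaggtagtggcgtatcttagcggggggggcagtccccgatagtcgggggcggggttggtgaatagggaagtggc
GABARAPL2 (chr16:75566129-75566378, plus strand): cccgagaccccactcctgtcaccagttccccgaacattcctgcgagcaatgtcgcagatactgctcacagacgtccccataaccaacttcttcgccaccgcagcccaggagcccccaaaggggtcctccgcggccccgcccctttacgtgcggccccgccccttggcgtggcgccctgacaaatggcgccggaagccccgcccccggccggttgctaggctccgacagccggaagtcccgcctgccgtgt
MAP1LC3B (chr16:87392086-87392335, plus strand): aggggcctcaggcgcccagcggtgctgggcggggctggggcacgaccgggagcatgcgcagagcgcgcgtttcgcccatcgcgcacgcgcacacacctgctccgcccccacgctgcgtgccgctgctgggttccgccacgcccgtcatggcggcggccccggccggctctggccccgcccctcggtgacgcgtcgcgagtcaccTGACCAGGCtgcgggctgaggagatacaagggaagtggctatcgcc

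RefSeq promoters were found for 9 of the 10 genes, and where a gene has several starts the first listed was counted. TTNNGNAA occurred in 3 of the 9 (GABARAP, GABARAPL1 and TAX1BP1) and in 33.6% of 27305 promoters of the same length. The TAX1BP1 match lies before its first listed start and not before its other start. All patterns were chosen after the members' values were seen, and TGACGTCA and GGGCGG also after the sequences had been read. TGACGTCA occurred in GABARAPL1 alone, 30 bases before its start, and in 1.77% of all promoters. TGACNNNGC occurred in MAP1LC3B alone and in 11.0% of all. CACGTG, the core of the site read by the lysosomal regulators TFEB and TFE3, occurred in 0 of the 9 promoters and in 6.49% of all, and its longer form TCACGTGA in 0 and in 0.890%. GTAAACA, a FOXO pattern, occurred in 0 of the 9 and in 2.98% of all. GGGCGG, the GC box, occurred in 8 of the 9 and in 42.3% of all, and its matches are not capitalised. TAX1BP1, the gene without it at the start counted, has 2 matches before its other start. No 2 different patterns overlap in the windows shown. A match is a string of letters and not a bound site, and windows further away were not searched.

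SQSTM1 encodes p62, a receptor that gathers ubiquitin-marked protein into condensates, binds ATG8 proteins and is itself degraded with its cargo. It had 17.9 and 27.7 TPM in differentiated libraries, against 6.50 and 5.02 TPM in undifferentiated ones. All differentiated values lay above all undifferentiated ones, and the ratio of differentiated library 1 to 2 (0.644) was farther from 1 than in the other 7 tested genes. The SQSTM1 means were 22.8 ± 6.97 TPM for differentiated and 5.76 ± 1.05 TPM for undifferentiated cells (SD, n = 2). They differed by 1.79 ± 0.39 on the log2 scale (SE, limma adjusted p = 0.00255). Without differentiated library 1 or 2 the SQSTM1 difference was 2.10 and 1.49, with a larger SE of 0.63 and 0.65, and the call was lost.

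TAX1BP1, a receptor and adaptor that also restrains NF-kB signalling, had 7.42 and 7.02 TPM in differentiated libraries, against 8.60 and 2.95 TPM in undifferentiated ones. The differentiated values lay between the undifferentiated ones. Undifferentiated library 1 was 2.92-fold above library 2, the largest excess of that library among the 10 genes. The log2 difference was 0.42 ± 0.45 (SE, limma adjusted p = 0.494), and it was 1.06 without undifferentiated library 1 and -0.22 without undifferentiated library 2 (adjusted p = 0.0197 and 0.437). OPTN, the optineurin receptor of damaged mitochondria and bacteria, had 0.37 and 0.50 TPM in differentiated libraries, against 0.84 and 0.80 TPM in undifferentiated ones. It was under 1 TPM throughout and was not tested. Both of its differentiated TPM values lay below both undifferentiated ones. With no filter on low values the log2 difference of OPTN was -0.34 (limma adjusted p = 0.485), and relative to protein-coding TPM its stages overlapped.

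Ratios between receptors were taken within each library, where scaling cancels. SQSTM1 stood to TAX1BP1 at 2.41 and 3.95 in differentiated and at 0.756 and 1.70 in undifferentiated libraries, with no overlap. SQSTM1 stood to MAP1LC3B at 2.02 and 2.94 against 0.962 and 1.56. Set against NBR1, which shares the ubiquitin-binding and ATG8-binding design of p62, SQSTM1 stood at 1.93 and 2.61 in differentiated and at 2.17 and 3.10 in undifferentiated libraries, and here the stages overlapped. The exact permutation p was 0.333 for the first pair of ratios and 0.667 for the ratio to NBR1, and these ratios too were chosen after the values were seen.

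WIPI1, a reader of phosphatidylinositol 3-phosphate on the forming membrane, had 2.88 and 2.94 TPM in differentiated libraries, against 0.26 and 0.49 TPM in undifferentiated ones. The differentiated values nearly coincided, and both undifferentiated values were under 1 TPM. The log2 difference was 1.51 ± 0.28 (SE, limma adjusted p = 0.000711). The call was kept without any single library (adjusted p up to 0.0125) and was lost with no filter on low values (adjusted p = 0.058). WIPI2, the paralog that recruits ATG16L1, was higher too, at 10.9 and 13.3 against 5.86 and 3.49 TPM (limma adjusted p = 0.0243, log2 difference 1.23). WIPI1 stood to WIPI2 at 0.265 and 0.222 in differentiated and at 0.0444 and 0.140 in undifferentiated libraries. ULK1, the kinase that starts autophagosome formation when mTORC1 is off, had 2.35 and 2.79 TPM in differentiated libraries, against 2.69 and 1.31 TPM in undifferentiated ones. These values overlapped (log2 difference 0.29 ± 0.37, SE, limma adjusted p = 0.572). The sign of the ULK1 difference turned with the GC trend removed (-0.08) and without undifferentiated library 2 (-0.05).

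In differentiated cells the order of mean TPM was GABARAP (114), SQSTM1 (22.8), MAP1LC3B (9.13), GABARAPL1 and TAX1BP1 (7.22 each), GABARAPL2 (6.49), WIPI1 (2.91), ULK1 (2.57), OPTN (0.435) and MAP1LC3A. Library values of TAX1BP1 and GABARAPL1 overlapped there, as did those of GABARAPL1 and GABARAPL2. In undifferentiated cells the order was GABARAP (33.9), TAX1BP1 (5.78), SQSTM1 (5.76), MAP1LC3B (4.99), GABARAPL2 (4.93), ULK1 (2.00), OPTN (0.82), WIPI1 (0.375), GABARAPL1 (0.325) and MAP1LC3A. The values from TAX1BP1 to GABARAPL2 overlapped in that stage, as did those of WIPI1 and GABARAPL1. GABARAPL1 therefore overlapped GABARAPL2 in differentiated cells, whereas in undifferentiated cells it overlapped WIPI1 and lay below the 7 genes before it.

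In the 4 genes that were not called, and in GABARAP, undifferentiated library 1 was at least 2.05-fold above library 2. That ratio was 2.16 for GABARAPL2, 2.10 for MAP1LC3B, 2.05 for ULK1 and 2.09 for GABARAP. It was 1.29 for SQSTM1, 0.531 for WIPI1 and 0.30 for GABARAPL1. Ranks within a library and values per 1000000 protein-coding TPM were set beside the TPM, a choice made after these ratios were seen. By rank within a library, all 8 tested genes stood higher in both differentiated than in both undifferentiated libraries, which held for 36.4% of all tested genes. GABARAPL1 and WIPI1 are among the 8 and had entered through their differentiated libraries. ULK1, for instance, ranked 6120th and 5698th in differentiated and 6599th and 7222nd in undifferentiated libraries. Taken per 1000000 protein-coding TPM, the 8 genes were likewise higher without overlap, against 48.5% of tested protein-coding genes. On that scale GABARAPL2 was at 51.8 and 49.4 in differentiated and 29.3 and 20.0 in undifferentiated libraries, TAX1BP1 at 60.9 and 52.1 against 37.4 and 18.9, and the ATG8 sum at 1020 and 1114 against 259 and 184. As deposited, 5 of the 8 genes were higher with the stages apart, against 31.0% of all tested genes. Of the 8, 0 were lower with the stages apart, against 39.0%. OPTN, which was not tested and is not among the 8, was lower in TPM with the stages apart. Refitted over protein-coding genes rescaled alone, 8 of 9 tested genes were called higher, with OPTN not called, against 34.3% of the 11945 genes tested in that fit, while the median over all genes tested was 0.37 in place of -0.14. In that fit 18.0% of all tested genes were called lower, and 0 of the 9 genes. Relative to that median, the log2 difference of GABARAPL2 was 0.66 and that of GABARAP 2.02, against 0.54 and 1.94 as deposited.

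**Figure D3:**
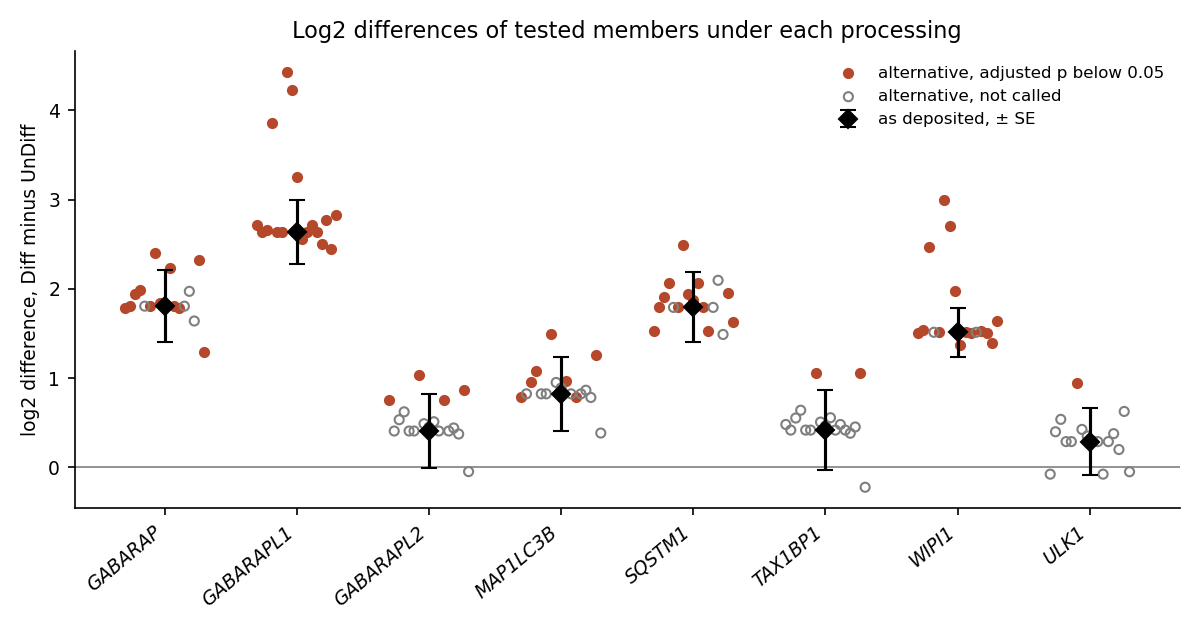
Log2 difference, differentiated minus undifferentiated, of each tested gene as deposited (diamond, ± SE) and under each alternative processing (circles, filled where the adjusted p was below 0.05). GABARAPL1 is filled throughout, and GABARAP, SQSTM1 and WIPI1 lie above 1 in every alternative. GABARAPL2 and TAX1BP1 lie below 0 in 1 alternative each and ULK1 in 3.

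The other genes of the pathway numbered 70 in 7 lists, and 63 of them were tested. The fit called 13 higher and 3 lower and left 47 uncalled, and the median log2 difference of the 63 was 0.43. Shares called were 20.6% higher and 4.76% lower, against 18.6% and 22.8% of all tested genes. Counts given per list below stand beside the same shares over all tested genes. None of the 63 was called without differentiated library 1, where 9 higher and 1 lower had an unadjusted p below 0.05 (limma) and 9.32% of all tested genes were called higher and 3.38% lower. None was called without differentiated library 2 either, where 6 higher and 1 lower had an unadjusted p below 0.05 and the shares over all genes were 9.17% and 3.31%. After median-of-ratios scaling 29 were higher and 4 lower, against 27.2% and 28.1% of all tested genes. Each of the 16 called genes kept its direction in every alternative in which it was tested. Calls of the higher genes were lost in 2 (CALCOCO1) to 6 (WDR45) of 16 or 17 alternatives. Those of the lower genes were lost in 5 (CALCOCO2 and ATG10) or 6 (PIK3C3).

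Most of these calls were in the list of other cargo receptors, with 8 of 15 tested genes higher, 1 lower and 6 not called (17 in the list, median 1.35). NCOA4, the receptor that carries ferritin to the lysosome, was the most abundant and had the largest rise, at 37.9 and 48.1 TPM in differentiated and 11.2 and 5.89 TPM in undifferentiated libraries (log2 difference 2.26, limma adjusted p = 0.000595). The other 7 called higher were WDFY3, CALCOCO1, CCPG1, NBR1, TOLLIP, BNIP3L and FKBP8. CALCOCO2, which encodes NDP52, a receptor of bacteria and mitochondria, was lower. It had 3.65 and 3.26 TPM in differentiated libraries, against 11.2 and 7.69 TPM in undifferentiated ones (log2 difference -1.21, adjusted p = 0.024), a call lost in 5 of 17 alternatives. CALCOCO1 and CALCOCO2, paralogs of TAX1BP1, thus differed in opposite directions, CALCOCO1 at 12.1 and 13.7 against 2.72 and 1.40 TPM (adjusted p = 0.000617, log2 difference 2.22).

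The conjugation and processing genes, which attach ATG8 proteins to lipid, were mostly not called, with 1 higher, 1 lower and 8 not called of 10 tested (median 0.12). ATG3, the enzyme that transfers ATG8 to lipid, was the most abundant at 14.5 and 20.9 TPM in differentiated and 29.5 and 22.2 TPM in undifferentiated libraries and was not called (limma adjusted p = 0.292). ATG16L2, a paralog of the conjugation scaffold ATG16L1, rose to 11.6 and 13.0 TPM in differentiated libraries, against 3.37 and 1.74 TPM in undifferentiated libraries (adjusted p = 0.00169). ATG10, which joins ATG12 to ATG5, was lower at 0.54 and 1.41 against 3.24 and 3.05 TPM (adjusted p = 0.0207), a call made in 11 of 16 alternatives.

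Of the 8 genes of the initiation kinase complex and the kinases around it, 0 were called, against 41.4% of all tested genes. At an unadjusted p below 0.05 there were 0 as well (limma, median -0.003). The most abundant was PRKAA1, a catalytic subunit of the energy sensor AMPK, at 9.27 and 5.34 against 17.5 and 9.11 TPM. Over protein-coding genes rescaled alone, ATG13 and RPTOR were called higher (limma adjusted p = 0.0110 and 0.0312). ULK2, ATG101, RB1CC1 and MTOR were not called in that fit, where 34.3% of all tested genes were called higher. PRKAA1 and TBK1, the remaining genes of this list, are not given for that fit, so no count over the whole list is made. In the phosphatidylinositol 3-kinase complex (median 0.47) 1 of 8 was called, the catalytic subunit PIK3C3 (VPS34), which was lower at 11.2 and 7.33 against 22.3 and 29.5 TPM (adjusted p = 0.011, log2 difference -1.40). The PIK3C3 call was lost in 6 of 17 alternatives, among them quantile normalization (adjusted p = 0.0583) and protein-coding genes rescaled alone (adjusted p = 0.0777). Of 8 tested genes for membrane supply and phosphoinositide readers 3 were higher (median 0.68): WIPI2, WDR45 and ATG9A, the membrane protein that seeds the autophagosome, at 4.25 and 4.62 against 1.35 and 1.15 TPM (adjusted p = 0.0119). VMP1, the most abundant of that list, was not called at 29.2 and 28.8 against 19.5 and 13.1 TPM. Among 14 fusion genes (median 0.65) only VAMP8, a SNARE of the lysosome, was called, at 6.08 and 9.56 against 2.23 and 1.80 TPM (adjusted p = 0.00768), while RAB7A, the most abundant, was at 37.9 and 35.0 against 34.3 and 20.9 TPM.

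**Figure D4:**
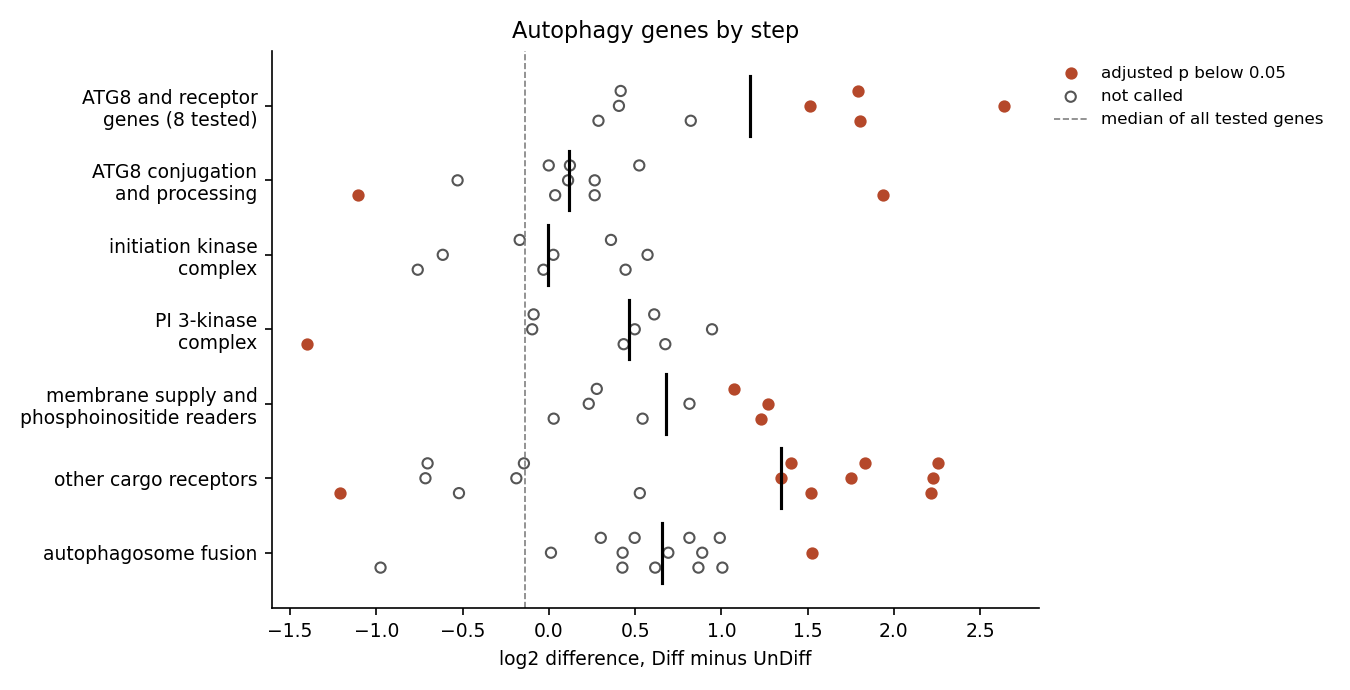
Log2 difference, differentiated minus undifferentiated, of tested autophagy genes by step; filled points had an adjusted p below 0.05, black bars are the medians of each list and the dashed line is the median of all tested genes (-0.14). Filled points on the positive side number 4 among the ATG8, receptor and upstream genes, 8 among the other cargo receptors, 3 for membrane supply, 1 each for conjugation and fusion, and 0 in the initiation and PI 3-kinase lists.

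The genes whose levels over the 4 libraries lay nearest to GABARAPL1, by Euclidean distance of log2(TPM + 1) among 9295 tested protein-coding genes, were APBB3 (distance 0.216), RASSF4 (0.287) and IFIT2 (0.409). Nearest to SQSTM1 were FLII (0.180), ARHGAP4 (0.288) and DGKZ (0.330). FLII, for instance, had 18.8 and 28.3 TPM in differentiated libraries, against 7.37 and 4.85 TPM in undifferentiated ones. With 4 libraries such likeness rests mostly on the difference between the stages.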

How the data were processed

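Total RNA of differentiated and undifferentiated BLaER1 cells (2 samples each) was sequenced as stranded libraries (NuGEN Encore Complete), per the labels' protocols. The authors deposited 1 table of TPM for 58302 genes, made with Trimmomatic, STAR and RSEM, per the submitters' processing notes. Tool versions and the genome build were not given in the sources used here, nor was the annotation. TPM keeps no depth, so no counting error or detection limit is given, and RSEM shares reads between near-identical copies. Columns were matched to samples by title and 0 columns of values were left out. Gene types and GC content came from GENCODE release 29 (58039 IDs matched), promoters from RefSeq.

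Genes that reached 1 TPM in 2 or more libraries (10180) were compared as log2(TPM + 1) with limma 3.58.1 in R 4.3.3 (moderated variances with a trend, two-sided, 2 residual and 10.9 prior degrees of freedom). A gene is called where its p, adjusted by Benjamini-Hochberg across the tested genes, is below 0.05. Fold changes on this scale understate those of low genes. With 1 library left out, the lone library of a stage is assumed to vary like the others. Shares and ratios were tested by exact permutation (scipy 1.17.1). The procedure was tested on simulated data. The 10 genes, the pathway lists and the tests were chosen with earlier results of these data known. Named besides the 10 are, per pathway list, the most abundant gene and the largest called rise and fall, the most abundant gene of each marker list, and the 3 genes nearest to GABARAPL1 and SQSTM1. NBR1, CALCOCO1, WIPI2, WDR45, MAP1LC3B2, MAP1LC3C and the remaining called receptors were named after their values were seen.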

Additional observations from a re-analysis of the deposited data

How the results depend on the processing

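The 17 alternatives concern scaling, filter, pseudocount, variance model and single libraries. GABARAPL1 was called in all of them. GABARAP and SQSTM1 were each called in 13 of 17 and WIPI1 in 14 of 16, with no change of direction, and their calls were lost with no filter (adjusted p = 0.111, 0.0717 and 0.058) and in the test against a log2 difference of 1 (adjusted p = 0.191, 0.181 and 0.227), GABARAP and SQSTM1 also without either differentiated library. With 1 library left out, the difference ranged from 0.383 to 1.26 for MAP1LC3B, from -0.0487 to 0.861 for GABARAPL2, from -0.224 to 1.06 for TAX1BP1 and from -0.0504 to 0.625 for ULK1, lowest without undifferentiated replicate 2 and highest without undifferentiated replicate 1. That of ULK1 was -0.0776 with the GC trend removed, with or without the replicate block. The cause was not tested.

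The count of the 10 genes called higher was 4 as deposited, 1 with no filter and against a log2 difference of 1, 8 over protein-coding genes rescaled alone, and 2 to 7 with 1 library left out. None was called lower in any alternative. Over all genes, 4216 calls became 1260 with no filter, 2436 at a filter of 5 TPM (fewer genes tested), 1305 against a log2 difference of 1, and 1271 to 5652 with 1 library left out. The other autophagy genes had 13 called higher and 3 lower as deposited, 2 and 0 with no filter, 29 and 4 with median-of-ratios factors, 26 and 5 when quantile-normalized, 39 and 2 over protein-coding genes rescaled alone, 21 and 4 without the 25 most abundant RNAs, 27 and 4 with the GC trend removed, 26 and 4 with that and the replicate block, 3 and 0 against a log2 difference of 1, and 0 to 27 higher and 0 to 9 lower with 1 library left out. Over all tested genes, 1890 were called higher and 2326 lower as deposited (10180 tested), and 687 and 573 with no filter (29186). Counts were 2769 and 2865 with median-of-ratios factors and 2585 and 2995 when quantile-normalized. With protein-coding genes rescaled alone they were 4102 and 2153 (11945), and without the most abundant RNAs 3089 and 2805 (13787). GC trend removal gave 2620 and 3000 (10164), and the test against a log2 difference of 1 gave 698 and 607. The median over all tested genes was -0.14 as deposited, -0.03 after median-of-ratios scaling, 0.04 without the most abundant RNAs and 0.37 over protein-coding genes. The GABARAP branch's share of the ATG8 sum differed by 4.16 to 5.00 percentage points with 1 library left out and by 4.95 with MAP1LC3B2, MAP1LC3C and GABARAPL3 added.

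Replicate numbers are shared between stages in the labels, but nothing says that they pair samples. The differences between replicates 1 and 2 of the stages correlated at r = -0.024 over 10180 genes. With the replicate number as a block 3766 of all tested genes were called, 1730 higher and 2036 lower. In that fit 4 of the 10 genes were higher, and of the other autophagy genes 11 were higher and 2 lower. Depth is unknown, and 2 libraries per stage limit every test.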
